A study of Mus musculus with 10 samples.

Results

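The FGF ligands and receptors read here were 10 genes, chosen by gene symbol: the secreted ligands Fgf8, Fgf3, Fgf10 and Fgf15, the intracellular homologues Fgf13 and Fgf14, and the receptors Fgfr1, Fgfr2, Fgfr3 and Fgfrl1. They were carried by 16 of the 22626 probe sets of the Affymetrix array, each with a single gene symbol in the platform annotation, out of 12393 genes in all. The RNA came from dissected hindbrain with pharyngeal arches 1 to 4 of E10.5 mouse embryos bred from heterozygous carriers of a Fbln1 gene-trap insertion. The 5 wildtype embryos carried no trap, and the 5 Fbln1-null embryos were homozygous for it. The trap is inherited, so it is present in every cell of a null embryo, and Fbln1 encodes fibulin-1, a glycoprotein of the extracellular matrix. The series asked how fibulin-1 affects signalling by fibroblast growth factor 8. The labels give neither the strain background nor the litter of each embryo, and every p-value here reflects the variation among these 10 arrays.

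Secreted FGFs bind receptor tyrosine kinases at the cell surface together with heparan sulfate, and the active receptor signals through adaptor proteins to the Ras-ERK cascade. In the pharyngeal region FGF8 from ectoderm and endoderm supports the survival and patterning of the arch mesenchyme, FGF3 and FGF10 act in the formation of the inner ear, and FGF15 is made in the neural tube and arches. FGF13 and FGF14 belong to a branch that is not secreted and does not act through the receptors; they bind voltage-gated sodium channels in neurons.

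The values were log2 signals from 2.22 to 14.8, and 9618 to 9943 probe sets per array were over log2 4. The processing pulls dim probe sets to a floor, and the lowest value of an array lay between 2.22 and 2.24. A probe set within 0.25 of the lowest value of its array is said to be at the floor, which gives no level and does not show that the transcript is absent. Fbln1 on its brighter probe set read 3.83 to 5.11 in wildtype and 2.52 to 2.85 in null arrays, with no overlap (two-sided exact permutation p = 0.00794, which is the lowest value this design allows). Of the null arrays 4 were within 0.5 of the floor, so no fold is given for Fbln1. Over all probe sets its limma adjusted p was 0.0715; it was 0.0173 without wildtype replicate 3 and 0.0930 to 0.170 without any other array. Markers of the labelled tissue were present: the hindbrain genes Hoxa3 and Hoxb4 had wildtype means of 7.06 and 6.76, and the arch mesenchyme genes Prrx1 and Twist1 had 10.1 and 8.72. Other markers of the arches and rhombomeres were dim, with wildtype means of 2.46 for Hand2, 2.31 for Dlx6, 2.75 for Hoxb1 and 2.99 for Egr2. Only wildtype replicate 4 was female by Xist and Y-linked signal, and the other 9 arrays were male.

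The secreted ligands gave almost no signal in either genotype. Fgf8, the ligand the series is about, was read by a single probe set (1451882_a_at) at 2.26 to 2.27 on all 10 arrays, so no fold can be given for it. Fgf3 was at 2.31 to 2.37 in wildtype on its first probe set (1422923_at) and at 2.36, 2.36, 2.77, 2.37 and 2.93 in null replicates 3, 4, 5, 7 and 8. Of the null arrays 2 therefore stood above the floor and 3 did not. Its second probe set (1441350_at) stayed at 2.38 to 2.45 on every array.

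Fgf10, a mesenchymal ligand, was at 2.27 to 2.35 in wildtype, and among the null arrays it was at 2.27 to 2.29 except for 2.93 in replicate 5 (1420690_at). Fgf15, the mouse counterpart of human FGF19, had 1 bright array in each genotype (1418376_at). Wildtype replicates 1, 2, 3, 4 and 5 read 2.55, 2.56, 2.53, 3.66 and 2.72, and null replicates 3, 4, 5, 7 and 8 read 2.56, 2.73, 2.57, 2.56 and 3.69. The 2 arrays near 3.7 stood well above the other 8, and they came from different genotypes, so the ranges overlapped almost fully. Those 2 arrays, wildtype replicate 4 and null replicate 8, also had the smallest 3' to 5' difference of their genotype for the actin control probe sets (2.0 and 2.19) and for Gapdh (1.68 and 1.54). These log2 differences measure how evenly a transcript is represented along its length, and their part in the Fgf15 values was not tested.

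**Figure D1:**
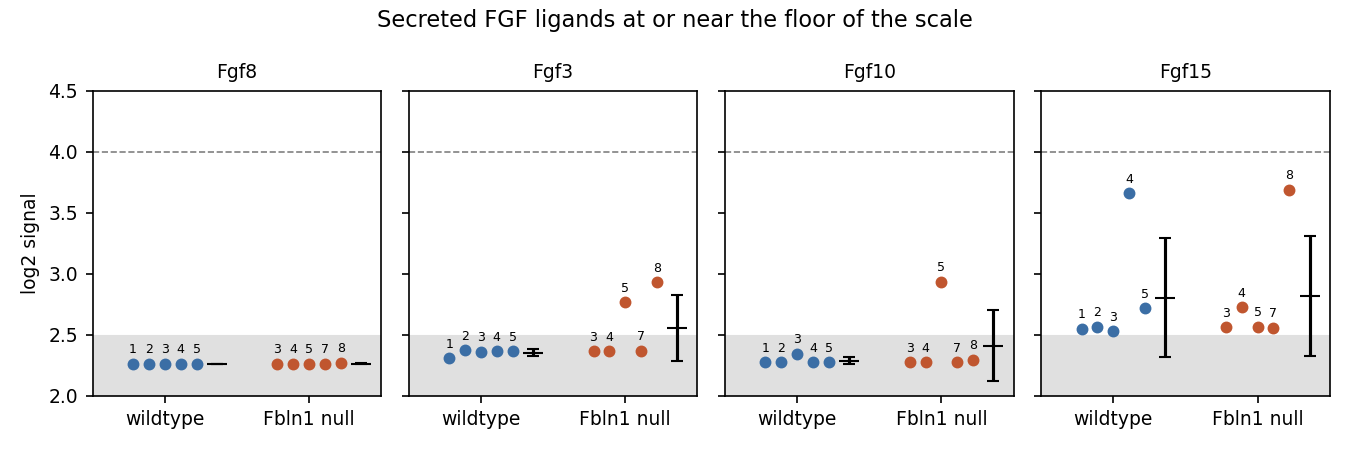
Log2 signal of Fgf8, Fgf3 (first probe set), Fgf10 and Fgf15 by genotype; each point is an array, labelled with its replicate number, with the mean and SD (n = 5) beside it, the grey band up to 0.25 above the floor and the dashed line at log2 4. Fgf8 lies on the floor throughout, and 2 arrays of Fgf3, 1 of Fgf10 and 2 of Fgf15 stand well above the rest of their gene.

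Some markers of epithelium and neural tissue, which are sources of several of these ligands, were measured in the samples. Of 11 listed markers of surface ectoderm and pharyngeal endoderm, 7 were over log2 4 on at least 5 arrays, and their mean level per array was 5.71 to 6.31 in wildtype and 5.63 to 6.26 in null tissue. Epcam, an epithelial adhesion molecule, had 6.51 ± 0.20 (SD, n = 5) in wildtype and 6.48 ± 0.23 in null arrays. The isthmus between midbrain and hindbrain is another source of FGF8. Of 6 markers of midbrain, isthmus and forebrain on the array 1 was measured, Otx2, with 5.26 ± 0.22 in wildtype and 5.21 ± 0.46 in null arrays (SD, n = 5). The isthmus genes En1 and En2 were dim, with wildtype means of 2.39 and 2.38, and Wnt1 was at the floor. Of the other 16 FGF ligands, 1 was over this limit. Fgf9 read 4.01 ± 0.10 in wildtype and 4.00 ± 0.31 in null arrays (SD, n = 5), and the other 15 had group means of 2.26 to 2.80.

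Fgf13 was the member with the largest difference between the genotypes. Its brighter probe set (1418497_at) read 6.74, 6.33, 6.23, 6.18 and 6.29 in wildtype replicates 1 to 5, and 6.43, 5.55, 5.31, 5.13 and 4.90 in null replicates 3, 4, 5, 7 and 8. Of the 5 null arrays 4 lay below every wildtype array, and null replicate 3 lay inside the wildtype range, so the groups overlapped by this array. The means were 6.35 ± 0.22 in wildtype and 5.47 ± 0.59 in null tissue (SD, n = 5). The log2 fold change was -0.89 (SE 0.25, 95% interval -1.42 to -0.36), a 1.85-fold lower level.

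This difference did not pass the threshold over the whole array (limma adjusted p = 0.188 over 9801 probe sets, two-sided exact permutation p = 0.0397 for this value alone). Without null replicate 3 the log2 fold change was -1.13 (SE 0.17, limma adjusted p = 0.0609), and without any other array it was -0.93 to -0.75. Of the 9801 probe sets, 31 (0.316%) had a log2 fold change as low as that of Fgf13 or lower. The second probe set (1418498_at), designed from the same transcript accession, was at the floor on all arrays at 2.27 to 2.38 and gave no second reading. In such bulk tissue, fewer cells of a type and less RNA per cell cannot be told apart.

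Fgf13 lies on the X chromosome, and the female array, wildtype replicate 4, had the lowest wildtype value. With embryo sex in the fit the log2 fold change was -0.93 (SE 0.27, limma adjusted p = 0.278). As wildtype replicate 4 is the only female array, this fit amounts to leaving it out (also -0.93). It cannot estimate an effect of sex. With the actin 3' to 5' difference in the fit the log2 fold change was -1.12 (SE 0.27, limma adjusted p = 0.179). That actin difference was 2.0 to 2.38 in wildtype (mean 2.26) and 2.19 to 2.85 in null arrays (mean 2.48). The Gapdh difference went the other way, at 1.68 to 2.32 (mean 1.96) and 1.54 to 1.98 (mean 1.81), and was not put in the fit. Of 10 neuron markers on the array all 10 were measured, 7 were higher on average in null tissue, and their mean level per array was 7.84 to 8.81 in wildtype and 8.20 to 8.82 in null arrays. Neural progenitor markers were lower on average, with 6 of 7 measured genes lower in null tissue and mean levels of 6.48 to 6.92 against 5.94 to 6.71. Sox1 of that list was at the floor. Their part in the Fgf13 difference was not tested.

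**Figure D2:**
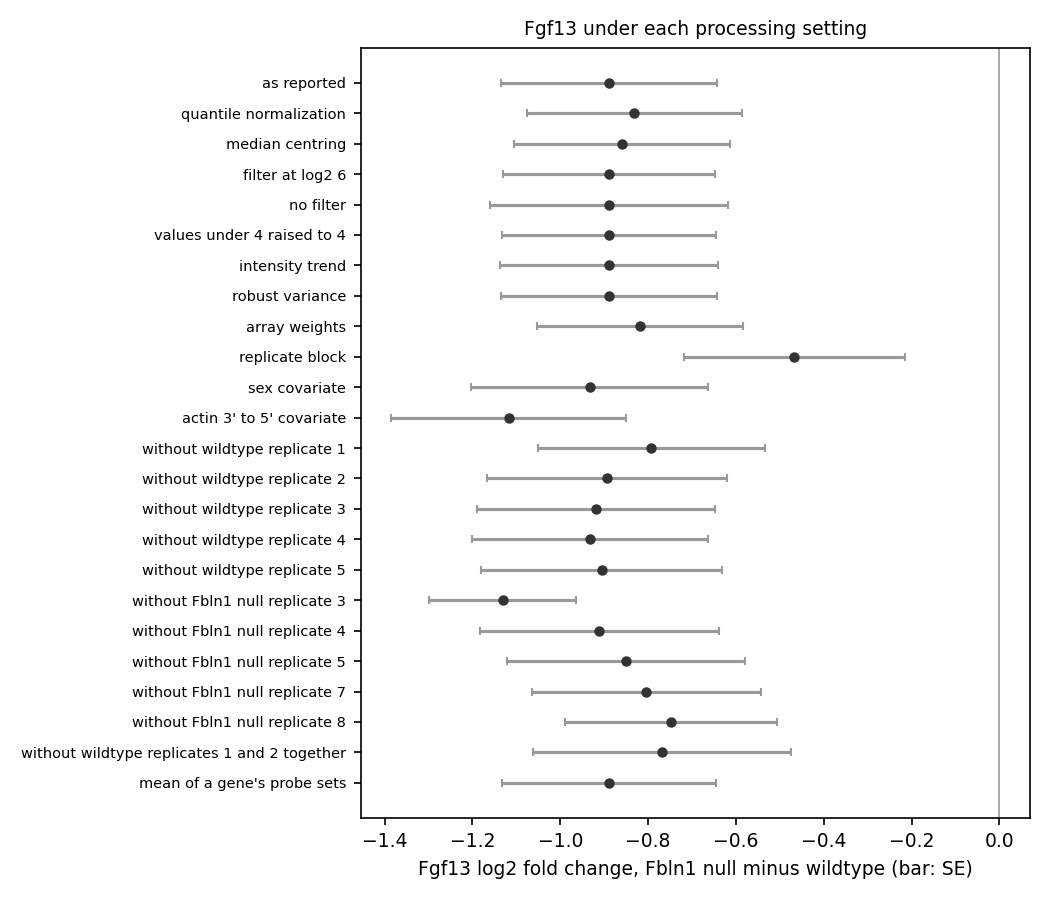
Log2 fold change of Fgf13 (null minus wildtype, bar: SE) under each way of processing the values, from the reported one at the top. All points lie below 0, from -1.13 without null replicate 3 to -0.47 with the replicate number as a block.

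Fgf14, the other intracellular homologue, was near the limit of measurement, and its groups overlapped. Its brighter probe set (1435747_at) read 3.96, 4.03, 4.03, 4.22 and 4.03 in wildtype replicates 1 to 5 and 3.72, 4.14, 4.06, 4.46 and 4.20 in null replicates 3, 4, 5, 7 and 8. The null arrays spread on both sides of the wildtype range, 1 below it and 1 above it. The log2 fold change was 0.06 (SE 0.14, 95% interval -0.24 to 0.37, limma adjusted p = 0.894), and its sign turned without null replicate 7 (-0.023). The second probe set (1449958_a_at) was at the floor, at 2.27 to 2.29 throughout.

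Proteins that the intracellular homologues bind were measured in part. Of 9 such genes on the array 5 were over the limit, with 3 higher and 2 lower means in null tissue, 0 past the threshold and a median log2 fold change of 0.05. Scn8a, a voltage-gated sodium channel, had 0.17 (SE 0.18), Mapk8ip2, a scaffold of the JNK cascade, had -0.23 (SE 0.24), and Tuba1a, an alpha-tubulin, had 0.05 (SE 0.12). With 1 array left out Scn8a ran from 0.093 (null replicate 7) to 0.30 (wildtype replicate 5), and Mapk8ip2 from -0.41 (null replicate 3) to -0.088 (wildtype replicate 1). Tuba1a ran from 0.0026 (wildtype replicate 4) to 0.094 (wildtype replicate 2). The Tuba1a probe set carries the array maker's mark for probes with sequence in common with other genes, so its value may include theirs.

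Among the receptors Fgfr2 gave a clear signal and had a lower mean in null tissue. FGFR2 is made as splice forms of epithelium and mesenchyme that bind different ligands. The brighter probe set (1433489_s_at) is marked by the array maker as matching several transcripts, as are those given below for Fgfr1 (1424050_s_at), Spred1 and Pbx2. The Fgfr2 probe set cannot be taken to separate the forms, and its value may include other transcripts. It read 9.32, 9.49, 9.14, 9.05 and 8.91 in wildtype replicates 1 to 5 and 8.97, 8.93, 9.14, 8.90 and 8.65 in null replicates 3, 4, 5, 7 and 8. The ranges overlapped, with 2 null arrays below the lowest wildtype array. The log2 fold change was -0.26 (SE 0.14, 95% interval -0.57 to 0.04, limma adjusted p = 0.476, exact permutation p = 0.0794), which did not pass. Wildtype replicates 1 and 2 were the highest of all, and without both it was -0.12 (SE 0.15). Leaving out the highest wildtype arrays brings the means closer in any case, so this value does not test the difference. With the actin difference in the fit the log2 fold change was -0.42 (SE 0.14, limma adjusted p = 0.290). The second probe set (1420847_a_at) was at the floor on 8 arrays and between 2.29 and 2.95.

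Fgfr3, a receptor of the ventricular zone of the neural tube and of cartilage, was dimmer and showed no call. Its brighter probe set (1421841_at) read 4.96, 4.91, 5.18, 5.07 and 4.75 in wildtype replicates 1 to 5 and 4.76, 5.05, 4.77, 5.38 and 5.23 in null replicates 3, 4, 5, 7 and 8. Of the null arrays 2 lay above every wildtype array and 0 below. The log2 fold change was 0.06 (SE 0.15, 95% interval -0.26 to 0.39, limma adjusted p = 0.900), and it was -0.023 without null replicate 7. The second probe set (1425796_a_at) was at the floor on 9 arrays.

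Fgfr1 and Fgfrl1 lay under the limit of log2 4 on at least 5 arrays and were read in the fit over all 22626 probe sets. Fgfr1, the main receptor of mesenchyme and neural tissue, had 3.79, 4.07, 3.57, 3.28 and 3.74 in wildtype replicates 1 to 5 and 3.67, 3.70, 3.67, 3.50 and 3.27 in null replicates 3, 4, 5, 7 and 8 (1424050_s_at). The lowest array of each genotype, wildtype replicate 4 and null replicate 8, had nearly the same value, and the groups overlapped. The log2 fold change was -0.13 (SE 0.15, 95% interval -0.46 to 0.20, limma adjusted p = 0.785). It was 0.030 without wildtype replicates 1 and 2, which were the highest wildtype arrays, so a shift upward was bound to follow. With 1 array left out it ran from -0.23 (wildtype replicate 4) to -0.035 (wildtype replicate 2). A second Fgfr1 probe set (1425911_a_at) was dimmer, at 2.49 to 2.85.

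Fgfrl1, a receptor that lacks the tyrosine kinase, read 3.96, 4.25, 3.80, 4.69 and 4.00 in wildtype replicates 1 to 5 and 3.95, 4.11, 4.06, 3.60 and 3.96 in null replicates 3, 4, 5, 7 and 8 (1451912_a_at). It was over log2 4 on 4 arrays, 2 of each genotype. Wildtype replicate 4 was the highest, and the log2 difference of -0.20 (SE 0.17, 95% interval -0.59 to 0.19, limma adjusted p = 0.780) was -0.062 without it and -0.12 without null replicate 7.

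**Figure D3:**
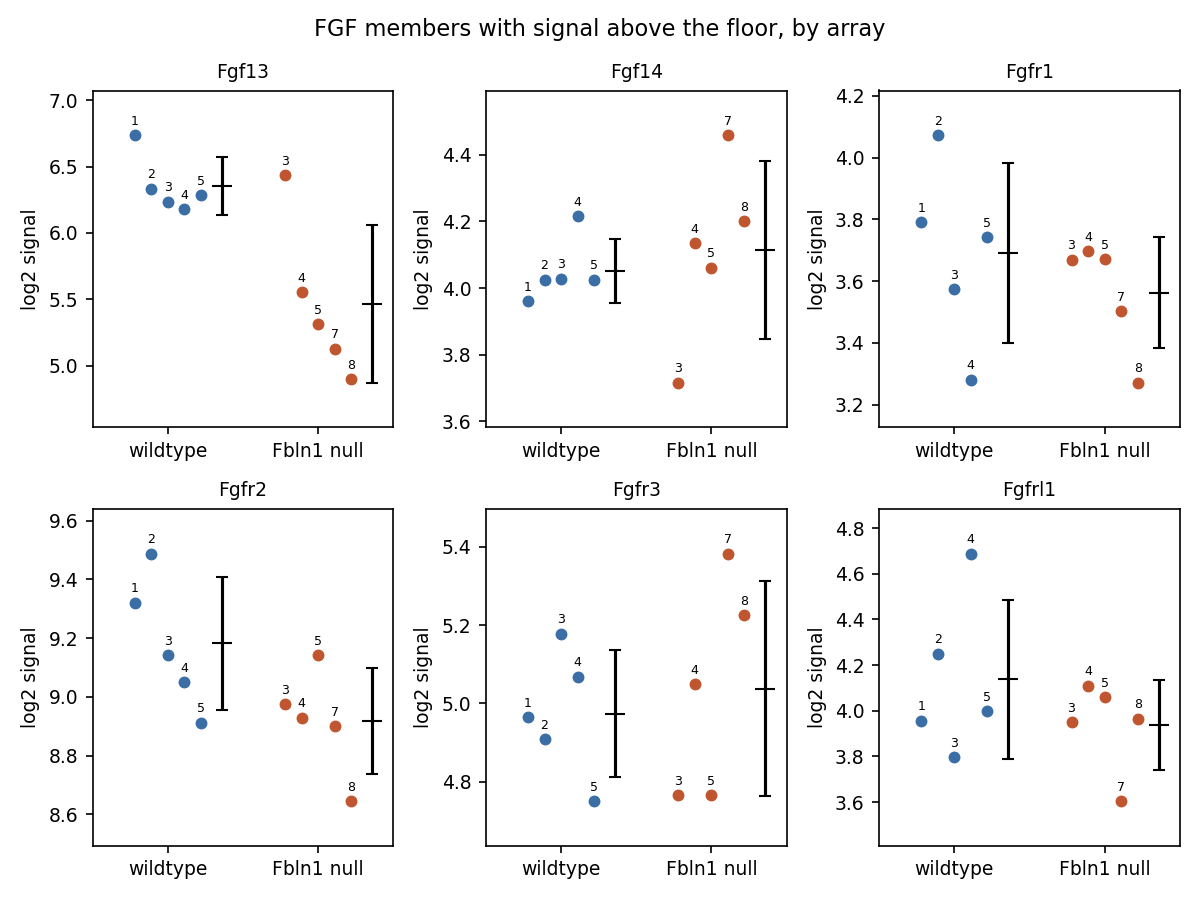
Log2 signal of the 6 members with a probe set clear of the floor, by genotype; each point is an array with its replicate number, and the bar gives the mean and SD (n = 5). Fgf13 has 4 of 5 null arrays below the wildtype range, and the genotypes overlap for every member shown, Fgf13 included.

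Of the members as a group, 4 of the 16 member probe sets, of 4 genes, were over log2 4 on at least 5 arrays, and the other 12 were under it. Among those 4, 0 passed an adjusted p of 0.05 (limma), against 0.0204% of the 9801 probe sets tested, and 1 had an unadjusted p under 0.05, against 12.4%. Of the 1215 probe sets at that unadjusted p, 69.1% were lower in null tissue, and 53.3% after quantile normalization and 58.8% after median centring. In the fit over all probe sets 0 of the 16 member probe sets passed, against 0.00442%, and 1 had an unadjusted p under 0.05 (limma), against 7.11%. The genotypes did not overlap on 0 of the 16, against 1.83% of all probe sets. The median log2 fold change of the 4 was -0.10, with 2 lower and 2 higher, and that of all 9801 was -0.037. Of the 12 under the limit, 4 were at the floor on all arrays. A further 6, mostly near the floor, had adjusted p values of 0.780 to 0.993 (limma), and no fold is given for them.

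**Figure D4:**
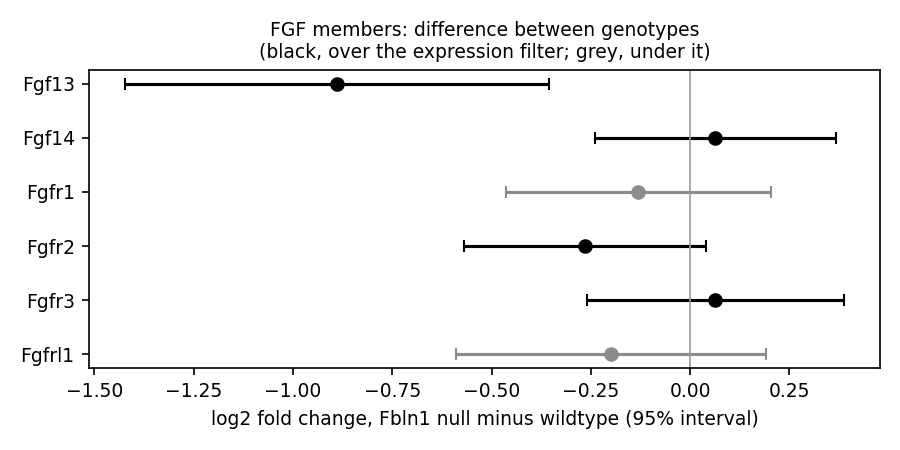
Log2 fold change (null minus wildtype) of the 6 members clear of the floor with the 95% interval; black points were over the expression limit and grey points under it. Only the interval of Fgf13, from -1.42 to -0.36, lies wholly on one side of 0.

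Genes that act beside the ligands and receptors were compared in the same way, and 0 of the 34 measured passed in either direction, against 0.0204% of all probe sets. They were drawn from 78 listed genes on the array; 16 had a higher and 18 a lower mean in null tissue, with a median log2 fold change of -0.0063, and 3 (8.82%) had an unadjusted limma p under 0.05, against 12.4% of all probe sets. Among the receptor adaptors and the Ras-ERK relay 13 of 17 were measured, 6 higher and 7 lower (median -0.0046). Ptpn11, the phosphatase SHP2 that links FGF receptors to Ras, read 9.97 ± 0.28 in wildtype and 9.49 ± 0.32 in null arrays (SD, n = 5), which is a difference of -0.47 on the log2 scale (SE 0.18, limma adjusted p = 0.332). Without wildtype replicates 1 and 2 together it was -0.30 (SE 0.20). Cbl, a ubiquitin ligase that sends active receptors to degradation, read 7.95 ± 0.44 and 8.44 ± 0.16 (SD, n = 5), a log2 difference of 0.49 (SE 0.19, limma adjusted p = 0.336). With the actin difference in the fit it was 0.31 (SE 0.21), and without wildtype replicates 1 and 2 together it was 0.79 (SE 0.15, limma adjusted p = 0.161).

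Feedback and target genes were 6 measured of 12 on the array, 4 higher and 2 lower, with a median log2 fold change of 0.14. The measured genes were Spry2, Spred1, Dusp6, Rasa1, Rasal2 and Shisa2. Spry1, Spry4, Il17rd and Etv5 were at the floor on all arrays, and Etv4 was dim, with a wildtype mean of 2.28. The median therefore leaves these targets out and gives no level of FGF signalling. Spred1, an inhibitor of Ras-ERK signalling, had 0.42 (SE 0.16), Dusp6, the ERK phosphatase, had 0.45 (SE 0.34), and Shisa2, which holds immature receptors inside the cell, had -0.036 (SE 0.16), and none of these passed (limma adjusted p from 0.323 to 0.960). The SD of Dusp6 was 0.87 in null arrays against 0.26 in wildtype, and its difference was 0.76 without null replicate 5 and 0.20 without null replicate 7. The transcription factors known upstream of the secreted ligands had 8 measured of 19, 3 higher and 5 lower, with a median of -0.11. Foxc2 had -0.44 (SE 0.26), Pbx2 -0.33 (SE 0.19) and Isl1 0.12 (SE 0.16). Foxc2 was -0.26 without wildtype replicate 1 and -0.064 without wildtype replicates 1 and 2 together. Pbx2 was -0.20 without null replicate 7 and -0.095 without both of those wildtype arrays. With 1 array left out Isl1 ran from 0.012 (wildtype replicate 4) to 0.19 (wildtype replicate 3). Of the other receptors and binding proteins 1 of 5 was measured. Fgfr1op2, named for its fusion to FGFR1 in a leukaemia and not itself a receptor, had -0.22 (SE 0.20), and -0.088 without null replicate 8.

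**Figure D5:**
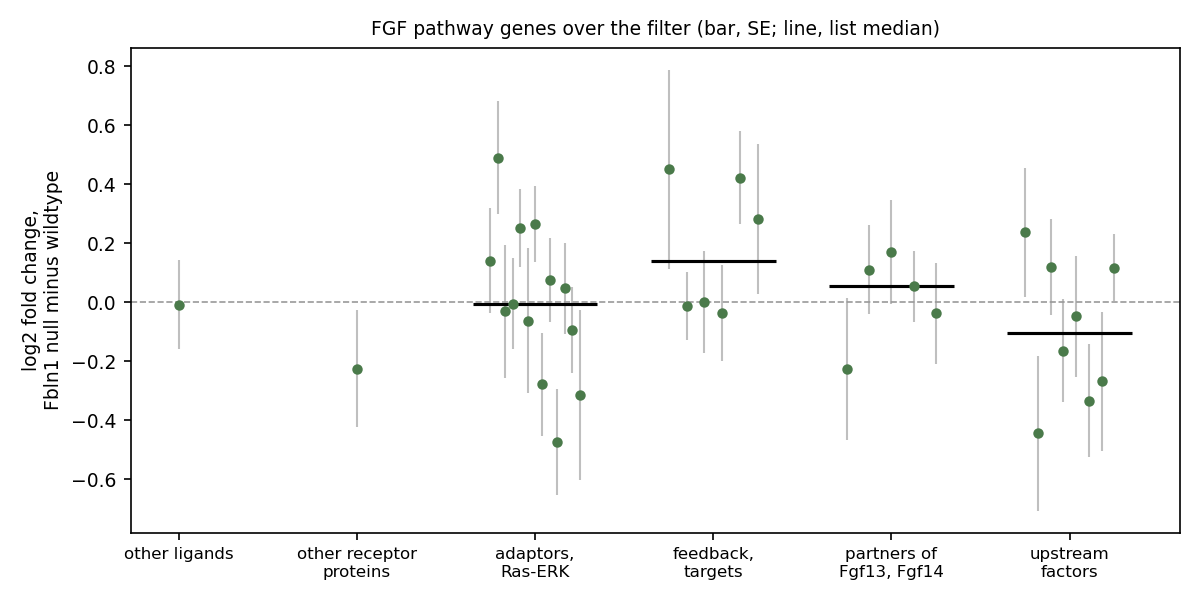
Log2 fold change (null minus wildtype, bar: SE) of every measured gene in the 6 lists around the FGF pathway; black lines give the list medians. Points lie on both sides of 0 in each list with more than 1 gene.

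The genes whose signal followed each member most closely over the 10 arrays were sought among the brightest probe sets of 5911 other genes. For Fgf13 they were Dsp, a desmosome protein (Pearson's r = 0.985, Spearman's rho = 0.964), Wdr13 (r = 0.968, rho = 0.939) and Hcfc1, a cell cycle cofactor (r = 0.952, rho = 0.939). Their log2 fold changes were -0.44, -0.40 and -0.88. For Fgfr2 they were Socs6, Pdcd7 and Septin9, with r of 0.926, 0.926 and 0.923. For Fgfr3 they were Vma21, Myo5a and Mospd1 (r of 0.950, 0.887 and 0.881), and for Fgf14 Zdhhc6, Ppp2r5c and Efcab7 (r of 0.868, 0.863 and 0.862). These values describe 10 arrays that were normalized together and include the difference between genotypes, and they were picked as the highest of many.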

How the data were processed

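Per the submitters' processing notes the authors used GCRMA, and they deposited its log2 values, 1 per probe set and array; the software version is not given in the sources used here. RNA was labelled with a 3' IVT kit, per the labels' protocols. Of 22690 probe sets, 64 controls were left out, and names came from the platform annotation, updated through RefSeq gene identifiers. The expression limit asked for a log2 value over 4 on 5 or more of the 10 arrays of either genotype, and "measured" genes are those with such a probe set, read on the brightest. Genotypes were compared with limma 3.58.1 in R 4.3.3, two-sided, with genotype alone in the model and Benjamini-Hochberg adjustment over all probe sets fitted, at a threshold of 0.05. Exact permutation tests used all 252 assignments. Array number limits the precision. The fit was tested on 9801 simulated probe sets, 200 of them changed, with normal noise independent between probe sets and arrays. It recovered 19.6% of changes of log2 0.5, 73.6% of log2 1 and 98.0% of log2 2. Some arrays here shared deviations (given below), which the simulation lacked. The adjustment is also looser where many probe sets change, and only 2 of the 9801 passed in these data. Recovery in these data may therefore differ, and it may be lower.

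The members, gene lists and tests were chosen with earlier results of these data known. The rule for named genes took all members, Fbln1, in each list the 2 genes with the smallest p and the brightest, and the 3 genes closest to each measured member by Pearson's r. Marker genes of tissues, and the feedback and target genes outside this rule, were named after their values were seen. Replicate numbers 3, 4 and 5 occur in both genotypes. Deviations of these 3 pairs from their group means correlated at -0.191, -0.343 and 0.158 across probe sets, so they were not treated as pairs. Pairs of unlike number ran from -0.399 (wildtype replicate 1, null replicate 7) to 0.496 (wildtype replicate 3, null replicate 7). Wildtype replicate 1 with null replicate 3 had 0.462, and wildtype replicate 4 with null replicate 8 had 0.446. Some arrays of unlike genotype thus shared deviations, which the fit did not model and whose source was not tested.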

Additional observations from a re-analysis of the deposited data

Results flagged for a closer look

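Groups of 5 arrays were searched for an array set apart from the other 4 by most of the range of the group. Of 24 groups (12 member probe sets not wholly at the floor, by genotype), 10 had such an array. For normally distributed values chance gives about 5% of groups. Only the flagged groups of Fgf13 and Fgf14 did not lie near the floor, where the processing pulls values together. Fgf15 was within 0.5 of the lowest value on 8 of the 10 arrays. The 5% is no measure for groups near the floor. Fgf13 was high in wildtype replicate 1 (6.74, next 6.33), and Fgf14 in wildtype replicate 4 (4.22, next 4.03). Fgf15 was high in wildtype replicate 4 (3.66) and in null replicate 8 (3.69), against 2.72 and 2.73 for the next arrays. The other 6 had values from 2.31 to 2.95. They were Fgf10 in wildtype replicate 3 (2.35) and null replicate 5 (2.93), and Fgf3 in wildtype replicate 1 (2.31). The rest were the dimmer Fgfr2 probe set in null replicate 8 (2.95) and the dimmer Fgfr3 probe set in wildtype replicate 2 (2.60) and null replicate 5 (2.48). Near the floor a small gap was enough, as for this last array, at 2.481 against 2.473 for the next.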

How the results depend on the processing

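Under all 24 alternatives 0 member probe sets and 0 genes of the pathway lists passed (limma). Among all probe sets the 2 calls became 34 with a log2 6 filter or array weights, 8 with an intensity trend, 1 without a filter, 0 with the replicate block, the sex covariate, the actin covariate or without wildtype replicates 1 and 2 together, and 0 to 7 with 1 array left out. Fgf13 and Fgfr2 kept a negative sign throughout. With the replicate block, which rests on 3 pairs not shown to be pairs, Fgf13 had -0.47 (limma adjusted p = 0.470) and Fgfr2 -0.020, Fgfr1op2 had -0.034, Ptpn11 -0.14, Cbl 0.84 and Isl1 0.27, and the adjusted p of Fbln1 was 0.416. Other log2 fold changes turned sign with the block: Fgf14 to -0.12, Fgfr3 to -0.14, Fgfr1 to 0.15, Foxc2 to 0.20, Mapk8ip2 to 0.22, Pbx2 to 0.084 and Shisa2 to 0.17. Without wildtype replicates 1 and 2 together Fgfr1 turned to 0.030, Mapk8ip2 to 0.0084, Shisa2 to 0.11 and Fgf9 to 0.032. Fgf9 (-0.0079 as reported) also turned to 0.046 with quantile normalization, 0.022 with median centring and 0.064 with values under 4 raised. It was 0.0019 with embryo sex in the fit, which amounts to leaving out the 1 female array. With the actin difference in the fit Fgf9 was 0.19, and Tuba1a turned to -0.018. With 1 array left out Fgf14 ran from -0.023 to 0.16, Fgfr3 from -0.023 to 0.13, Fgf9 from -0.076 to 0.12 and Shisa2 from -0.15 to 0.025. The null arrays of the brighter Fbln1 probe set are near the floor, so its fitted difference is not read as a fold. That difference ran from -2.06 to -1.74 with 1 array left out (limma adjusted p = 0.0173 to 0.170). It was -0.58 with values under 4 raised to 4 (limma adjusted p = 0.468). The cause of these shifts was not tested. With the floor taken as 0.5 above the lowest value, 5 member probe sets in place of 4 were at it on all arrays.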
